A study of Arabidopsis thaliana with 12 samples.

Results

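SDI2, the Arabidopsis thaliana gene AT1G04770, was followed in whole roots over 72 h of growth on sulfur-deficient medium. It was read through 1 probe set, 261177_at, which the platform's annotation pairs with this gene alone. It was taken by name, with earlier results of these data known, so it is not an unselected gene. It is 1 of 22746 probe sets on the array that are no controls. The series holds 12 one-colour Affymetrix arrays of ecotype Columbia roots, 2 at each of 6 times. After 2 days of stratification, seedlings grew for 5 days on standard MS medium, and all groups share these steps and a transfer. The 0 h group went to fresh standard medium, and the groups of 3, 12, 24, 48 and 72 h went to a medium whose recipe lists no sulfate salt, with chlorides of magnesium, iron, manganese, zinc and copper, and MES, a sulfonic acid, as the buffer. Standard medium was sampled at 0 h alone, so "rose" and "fell" below are relative to the named group, and an effect of sulfur cannot be told apart from one of transfer, age or hour of harvest. Nothing in the labels says that the 2 replicates of a time were grown apart. The spread behind each p-value is that between these arrays and may be technical. In whole roots, more cells of a type and more RNA per cell cannot be told apart.

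Plants take up sulfate, reduce it and fix it in cysteine through O-acetylserine, the carbon skeleton that builds up when sulfide is short. A small set of genes whose transcripts follow O-acetylserine, SDI1 and SDI2 among them, is known in Arabidopsis as a marker of sulfur deficiency. SDI1 and SDI2 are related proteins of the family of MS5, a gene of male meiosis. Both are known to restrain the synthesis of glucosinolates, defence compounds that hold sulfur, and SDI1 does so by binding MYB28, an activator of the aliphatic glucosinolate genes.

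SDI2 rose about 6-fold within 3 h, and its signal stayed above that of 0 h at every later time. The deposited signals are linear intensities on one common scale. At 0 h the signals were 156.1 and 161.2 on replicates 1 and 2. At 3 h they were 1030 and 873.2. At 12 h they were 471.5 and 662.8. All 4 of these deficient arrays lay well above both 0 h arrays. At 24 h the signals were 659.2 and 496.4, and at 48 h they were 711.7 and 690.5. At 72 h they were 810.8 and 827.8. The lowest of the 10 deficient arrays, 12 h replicate 1, was thus still above the higher 0 h array, and the highest was 3 h replicate 1.

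**Figure D1:**
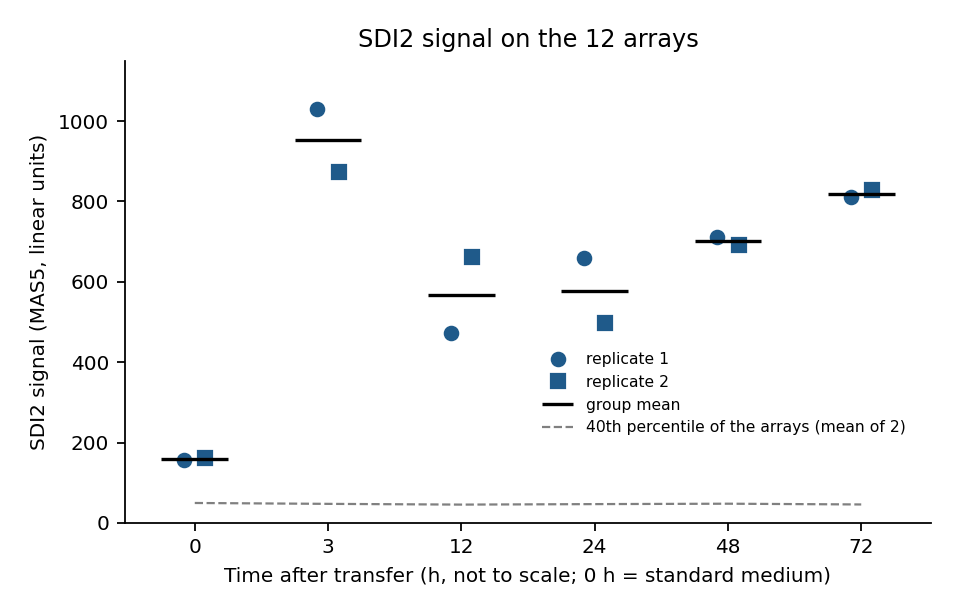
Signal of SDI2 (MAS5, linear units) on each of the 12 arrays by time after transfer, with circles for replicate 1, squares for replicate 2 and bars for the group means. The 0 h arrays lie at 156.1 and 161.2 and all 10 later arrays lie between 471.5 and 1030, and the dashed line is the 40th percentile of the arrays.

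The group means were 158.6 ± 3.62 (SD, n = 2) at 0 h, 951.8 ± 111.1 at 3 h, 567.1 ± 135.2 at 12 h, 577.8 ± 115.1 at 24 h, 701.1 ± 15.0 at 48 h and 819.3 ± 12.0 at 72 h, each with n = 2. The spread was uneven. The higher replicate exceeded the lower by a ratio of 1.41 at 12 h, 1.33 at 24 h and 1.18 at 3 h, but by at most 1.03 at 0, 48 and 72 h. SDI2 was measured well within the array's range, at 3.20 to 22.7 times the 40th percentile of its array, a percentile that ran from 45.3 to 50.4.

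Each later time was compared with 0 h to ask whether the gene differed from roots on standard medium, with limma on log2 signals over all 12 arrays. The p-values were adjusted by the Benjamini-Hochberg method over 14678 tested probe sets. A probe set was tested where it exceeded the 40th percentile of the array on at least 2 arrays, and the threshold was an adjusted p of 0.05. At 3 h SDI2 rose 5.98-fold (95% interval 4.57 to 7.83), with an adjusted p of 5.75e-07. The standard error of each difference was 0.18 on the log2 scale. At 12 h it was 3.52-fold higher (2.69 to 4.61), and at 24 h 3.61-fold higher (2.76 to 4.72). At 48 h it was 4.42-fold higher (3.38 to 5.78), and at 72 h 5.16-fold higher (3.95 to 6.76). The adjusted p-values at these 4 times ran from 2.67e-06 to 5.82e-05. The intervals of the 5 differences share the same 0 h arrays.

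To set these calls against the array, 5.42% of the probe sets tested were called higher at 3 h, 3.36% at 12 h, 2.47% at 24 h, 1.97% at 48 h and 2.91% at 72 h. Of the 14678 probe sets, 135 (0.920%) were called higher at all 5 times, and SDI2 was 1 of these. By size, its log2 difference from 0 h was the 32nd highest of all tested at 3 h, the 42nd at 12 h, the 29th at 24 h, the 25th at 48 h and the 27th at 72 h. A higher rank at 48 h than at 3 h came with a smaller difference of its own. The mean of the 5 deficient groups was 4.44-fold above 0 h (3.61 to 5.48; adjusted p = 4.22e-07 with limma), against 4.95% of probe sets called higher in that comparison.

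The moderated F test over the 5 differences also passed for SDI2 (adjusted p = 5.89e-06 with limma), as it did for 11.7% of the probe sets. A test of SDI2 alone borrows no spread from other probe sets, and its p is not adjusted over them. Among all 10395 ways to put the 12 arrays into 6 pairs, 64 had a sum of squared log2 differences within pairs as small as that of the true replicates, an exact permutation p of 0.00616 (one-sided). The 0 h log2 signals were 7.29 and 7.33 and the lowest later one was 8.88, so every pairing that splits the 0 h arrays has a larger sum. This p thus rests largely on the 0 h pair and is no test of the deficient times alone.

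By mean level the order was 3 h, 72 h, 48 h, 24 h, 12 h and 0 h, from the highest to the lowest. Every step of this order but the last missed the threshold. The top pair, 3 h and 72 h, differed by -0.21 on the log2 scale (72 h minus 3 h, 95% interval -0.60 to 0.18; adjusted p = 0.566 with limma), although their arrays did not overlap, and 8.56% of probe sets were called in that comparison. From 48 h to 72 h the difference was 0.22 (-0.16 to 0.61), where 0.0818% were called, and from 24 h to 48 h it was 0.29 (-0.09 to 0.68), where 0.0204% were. The 12 h and 24 h arrays overlapped, with a difference of 0.03 (-0.36 to 0.42) where 0.0273% were called. Only the step from 12 h down to 0 h passed among neighbours in this order.

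**Figure D2:**
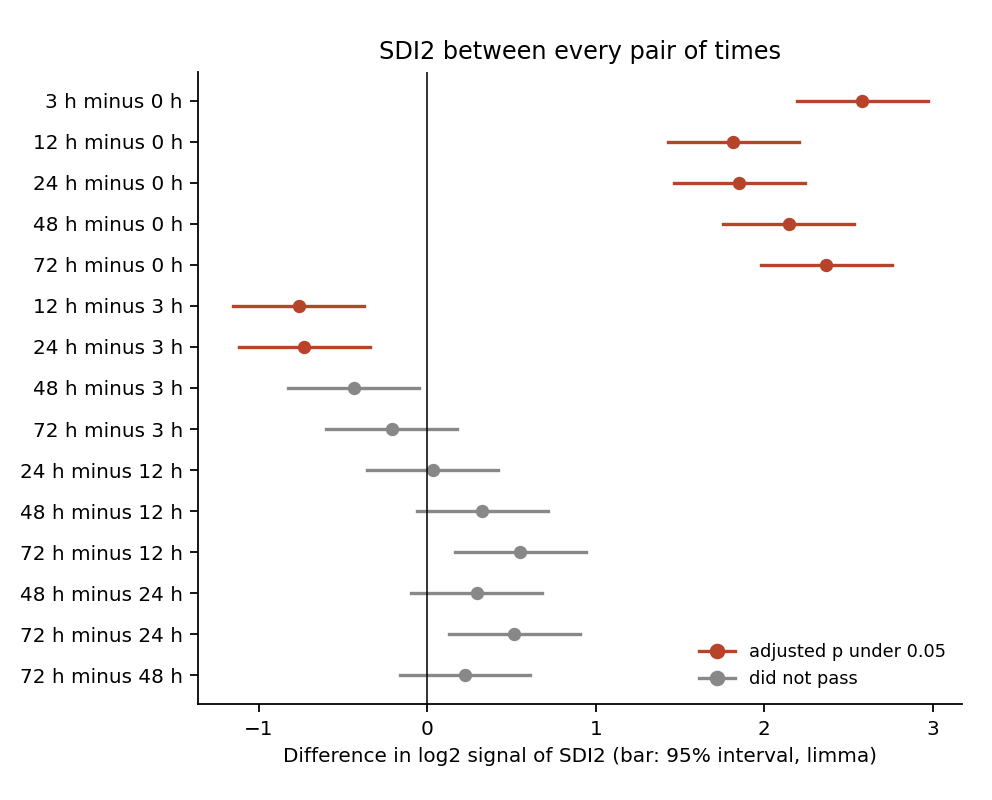
Differences in the log2 signal of SDI2 between every pair of times, as points with 95% intervals from limma, red where the adjusted p was under 0.05. All 5 differences from 0 h lie between 1.82 and 2.58, and of the 10 differences among later times only 12 h minus 3 h and 24 h minus 3 h passed.

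Values were lower at 12 h and 24 h than at 3 h, by calls that depend on the processing. From 3 h to 12 h SDI2 fell by 0.76 in log2 signal (SE 0.18, n = 2 per time; adjusted p = 0.0454 with limma), a call made for 1.12% of probe sets in that direction. From 3 h to 24 h it fell by 0.73 (SE 0.18; adjusted p = 0.0314 with limma), against 2.34% called lower. The mean signal at 12 h was 59.6% of that at 3 h, and at 24 h it was 60.7%. Both calls are near the threshold, and they were lost under 12 and 5 of 19 alternatives. The call at 12 h had adjusted p-values with limma of 0.0505 with quantile normalization, 0.0559 with no filter, 0.114 without the trend in the prior variance, 0.0603 with the replicate block and 0.115 with the compared groups alone. That at 24 h had 0.0763 without the trend and 0.0690 with the compared groups alone. The fall to 12 h was -0.52 without 12 h replicate 1 (adjusted p = 0.417 with limma), and the fall to 24 h was -0.52 without 24 h replicate 2 (adjusted p = 0.343 with limma). Without 3 h replicate 1 they were -0.64 and -0.61, and without 3 h replicate 2 they were -0.88 and -0.85, and none of these passed. Without any 1 of the arrays of 48 h or 72 h the fall to 12 h kept its size and had adjusted p-values of 0.0683 to 0.0709 with limma. The 3 h arrays also had the highest 3' to 5' signal ratio of the ubiquitin control, 1.20, and of the actin control, 3.44, both on replicate 2; the lowest such ratio of the GAPDH control, 0.834, was on 3 h replicate 1. Over all arrays these ratios ran from 0.840 to 1.20, from 2.38 to 3.44 and from 0.834 to 1.24, and their part in the result was not tested.

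From 3 h to 48 h the difference was -0.44 (-0.82 to -0.05; adjusted p = 0.191 with limma), against 7.56% called, and from 12 h to 48 h it was 0.33 (-0.06 to 0.71), against 1.31%. After the low point no step between times passed. The mean signal at 48 h was 73.7% of the 3 h mean and that at 72 h was 86.1%. Both 72 h arrays were above all 4 arrays of 12 h and 24 h, with a log2 difference of 0.55 from 12 h (0.16 to 0.94; adjusted p = 0.184 with limma). From 24 h it was 0.52 (0.13 to 0.91; adjusted p = 0.478 with limma), and 1.94% and 0.361% of probe sets were called in these comparisons. As 4 arrays each, 48 h and 72 h stood 0.42 ± 0.13 (SE) above 12 h and 24 h on the log2 scale, also short of the threshold (adjusted p = 0.164 with limma). In that comparison 0.729% of probe sets were called higher.

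The annotation of assembly TAIR10.1 places AT1G04770 on chromosome 1, where its span overlaps that of the neighbouring gene VAMP726. The annotation used pairs no probe set with VAMP726, so signal from the overlap could not be checked on it. The next neighbours with a probe set, AT1G04780 and AT1G04790, passed at none of the 5 times. Their log2 differences from 0 h ran from -0.06 to 0.22 and from -0.29 to -0.02.

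The genes around SDI2 could be seen only in part. Of 77 other genes listed for its family, the O-acetylserine set, other markers of sulfur deficiency, sulfate uptake and assimilation, glutathione, and glucosinolate synthesis, and regulators of glucosinolates and sulfur, 11 had a probe set that was paired with them alone and passed the filter. SDI1, MS5 and the 12 sulfate transporters were not among them, nor was any O-acetylserine gene but SDI2. Of these 11 genes, 5 were called higher and 0 lower at 3 h, where 12.0% of probe sets were called either way and 6.53% lower. At 12 h and at 24 h 1 was higher and 1 lower, against 7.69% and 4.83% called either way and 4.33% and 2.36% called lower. At 48 h 1 was higher and 2 lower, against 3.52% and, for lower, 1.55%. At 72 h 1 was higher and 4 were lower, against 6.17% and, for lower, 3.26%. The median log2 difference of the 11 was 0.64 at 3 h and -0.10 at 72 h, beside medians of -0.01 and -0.00 over all probe sets tested. SDI2, at 2.58 and 2.37, lay above both. The 1 gene called higher at 12, 24, 48 and 72 h was BGLU28, which was also among the 5 at 3 h. Both 0 h arrays of BGLU28 were below the 40th percentile, so it passed the filter only through the deficient arrays.

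In its own family the 1 other measured gene, AT3G51280, passed at no time. Its signals were 187.5 and 133.1 at 0 h and 104.1 and 154.0 at 3 h, and its means at the later times lay between 146.2 and 150.0. Its log2 differences from 0 h ran from -0.32 to -0.08, with adjusted p-values of 0.420 to 0.879 with limma. AT5G44330, also listed in the family, had a probe set that did not pass the filter.

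Of the other markers of sulfur deficiency listed, only BGLU28 was measured. This beta-glucosidase is known to rise when sulfur is short and is thought to release sulfur from glucosinolates. BGLU28 was called higher at all 5 times, as SDI2 was. BGLU28 signals were 15.8 and 14.0 at 0 h, 1930 and 2825 at 3 h, 162.5 and 368.8 at 12 h, 489.0 and 450.3 at 24 h, 646.3 and 1022 at 48 h, and 2005 and 2360 at 72 h. Its 0 h arrays were below the 40th percentile, so the size of its rise is uncertain. BGLU28 thus passed the filter only through the deficient arrays, and its calls against 0 h are given no weight. With an offset added before the log its 3 h difference was 6.24. The log2 differences from 0 h stood side by side at 2.58 for SDI2 and 7.29 for BGLU28 at 3 h, 1.82 and 4.04 at 12 h, 1.85 and 4.98 at 24 h, 2.14 and 5.77 at 48 h, and 2.37 and 7.19 at 72 h. The group means of both genes were highest at 3 h and, among the deficient times, lowest at 12 h. For BGLU28 the 3 h and 72 h arrays overlapped. BGLU28 fell by 3.25 in log2 signal from 3 h to 12 h (SE 0.31; adjusted p = 1.45e-04 with limma). From 12 h to 72 h BGLU28 rose by 3.15 (adjusted p = 1.00e-04 with limma), a comparison in which SDI2 did not pass.

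**Figure D3:**
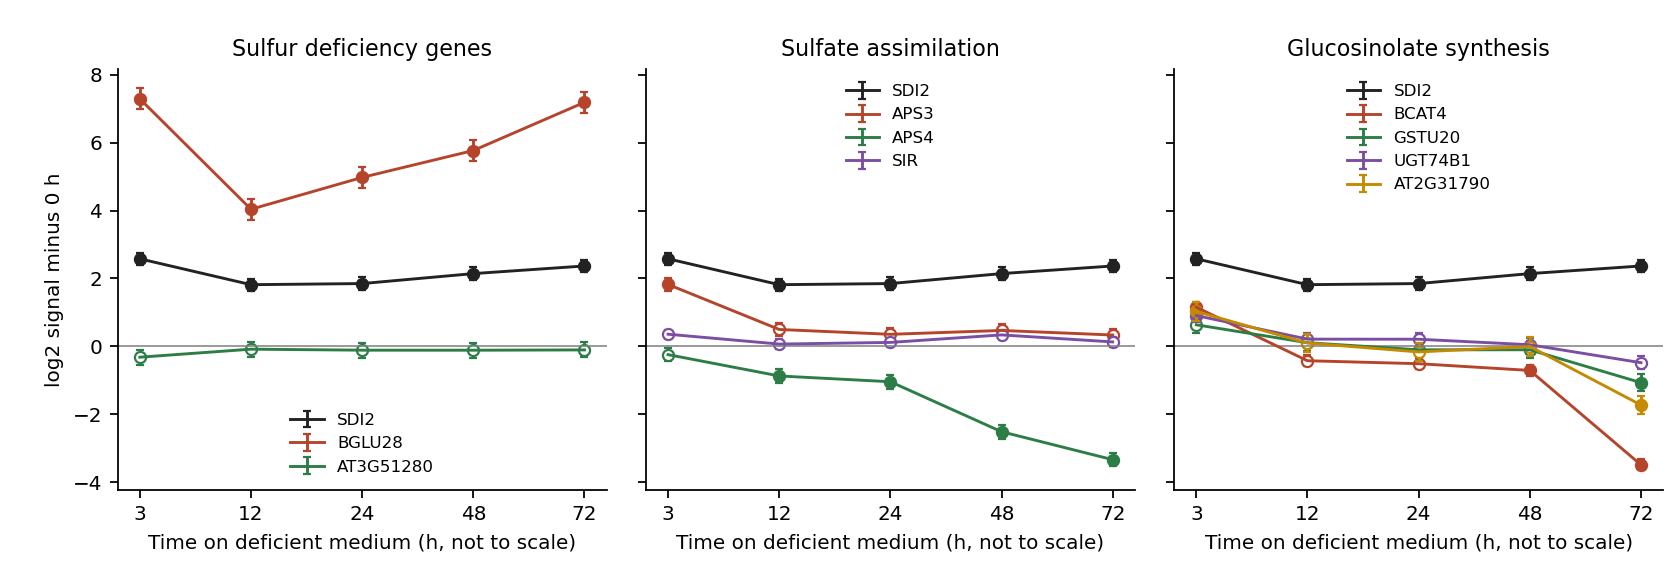
Log2 signal minus that of 0 h at 3, 12, 24, 48 and 72 h for SDI2, repeated in each panel in black, beside measured genes of sulfur deficiency, sulfate assimilation and glucosinolate synthesis. Bars are standard errors from limma, and filled points passed an adjusted p of 0.05; SDI2 stays between 1.82 and 2.58 while BCAT4 goes from 1.15 to -3.49 and APS4 from -0.24 to -3.34.

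In sulfate assimilation 3 of 17 listed genes were measured. ATP sulfurylases activate sulfate as the first step of its reduction. APS3, one of these, also rose at 3 h. Its signals were 104.6 and 101.6 at 0 h, 339.7 and 392.2 at 3 h, and 135.9 and 155.9 at 12 h, and from 24 h on its means were 130.0 to 143.5. From 3 h to 12 h APS3 fell by 1.33 in log2 signal (SE 0.18; adjusted p = 0.00160 with limma), and its differences from 0 h passed at 3 h alone. APS4, another ATP sulfurylase, was lower where SDI2 was higher from 12 h on. Its signals were 1808 and 1759 at 0 h, 1650 and 1375 at 3 h, 1192 and 795.9 at 12 h, 765.1 and 979.9 at 24 h, 358.0 and 271.8 at 48 h, and 178.3 and 174.1 at 72 h. All arrays from 12 h on lay below those of 0 h and 3 h. APS4 fell at 4 of the 5 times, and at 12 h the call was lost without either 0 h array or without 12 h replicate 2. At 24 h it was lost without 24 h replicate 1. Sulfite reductase, SIR, which reduces sulfite to sulfide, had differences between 0.07 and 0.36 and passed at none.

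The genes of the pathway that SDI2 is known to restrain were measured for 4 of 21 listed members. At 3 h, when SDI2 was at its highest, 3 of the 4 were called higher and 0 lower, and at 72 h 3 were lower and 0 higher. Over all probe sets tested, 5.42% were called higher and 6.53% lower at 3 h, and 2.91% and 3.26% at 72 h. BCAT4, the aminotransferase that opens the chain elongation of methionine, had signals of 738.2 and 716.0 at 0 h, 1421 and 1840 at 3 h, 465.0 and 425.3 at 48 h, and 61.3 and 68.3 at 72 h. These 4 times did not overlap. At 12 h BCAT4 had 572.7 and 513.0, and at 24 h 575.2 and 452.5. BCAT4 was called lower at 48 h only with all 4 arrays of the comparison in the fit, and the call was lost under 6 of 19 alternatives. From 48 h to 72 h BCAT4 fell by 2.78 (SE 0.17; adjusted p = 2.58e-06 with limma), a call made for 0.0749% of probe sets in that direction, while the SDI2 difference over that step was 0.22 and did not pass. The list member AT2G31790 had signals of 189.1 and 171.6 at 0 h, 364.2 and 370.9 at 3 h, and 68.3 and 43.3 at 72 h, the last of these below the 40th percentile. The 3 h call of AT2G31790 needed all 4 arrays of the comparison and was lost under 5 of 19 alternatives. UGT74B1, a glucosyltransferase of the core pathway, had a log2 difference of 0.91 at 3 h and passed there alone. The glutathione transferase GSTU20 passed at 72 h alone, with -1.07. That call did not survive the removal of 0 h replicate 1 or 72 h replicate 2, and it was lost under 3 of 19 alternatives.

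Over the 12 arrays the log2 signal of SDI2 had a Pearson correlation of 0.97 with BGLU28, 0.61 with APS3, 0.56 with SIR, -0.51 with APS4 and -0.19 with BCAT4. Those of the other 3 glucosinolate genes were between -0.04 and 0.22. Such values are descriptions, since the points share arrays and times and the 0 h pair lies far from the rest. Over the 10 deficient arrays alone the value was 0.88 for BGLU28, 0.64 for APS3, -0.15 for APS4 and 0.01 for BCAT4. High SDI2 thus went with both the highest BCAT4 signals, at 3 h, and the lowest, at 72 h.

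**Figure D4:**
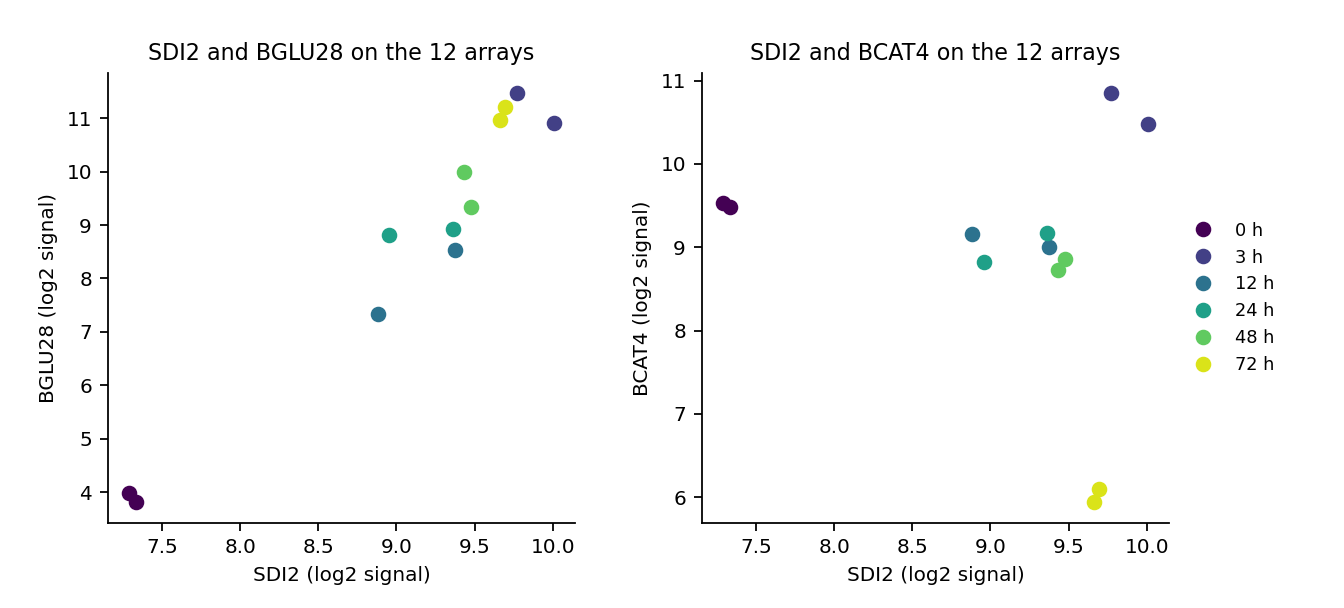
Log2 signal of BGLU28 (left) and BCAT4 (right) against that of SDI2, with 1 point per array coloured by time. BGLU28 climbs with SDI2 (correlation 0.97 over 12 arrays, 0.88 without 0 h), while BCAT4 is both high, at 3 h, and low, at 72 h, where SDI2 is high.

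Of 11 listed regulators of glucosinolate and sulfur genes, 2 were measured, MYC3 and MYC4, which with MYB factors are known to activate glucosinolate genes. MYC3 had mean signals of 224.0 to 280.1 and MYC4 of 93.0 to 118.4 over the 6 times. Neither passed at any time.

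The genes whose course was most like that of SDI2 were taken from the 7958 other tested probe sets with 1 gene, by Pearson correlation of log2 signals over the 12 arrays. After BGLU28 came AT3G56200 (0.96), AT3G27150 (0.95), the glutathione transferase GSTU25 (0.95), AT2G41730 (0.94), AT3G21690 (0.93), HL (0.93), UGT87A2 (0.93), AT5G20400 (0.93) and AT5G14730 (0.92). HL is a HAL2-like nucleotidase, an enzyme that clears a by-product of sulfation, and UGT87A2 is a UDP-glucosyltransferase. Of the 7958 probe sets, 14 reached 0.9. The list depends on the measure, since 3 of the 10 were shared with the 10 by Spearman correlation and 2 with the 10 by group means. BGLU28 ranked 5 and 13 there. Of the 10 most alike, 9 were called higher at all 5 times and AT5G20400 at 2, as a choice by likeness to SDI2 favours. Over all probe sets tested, 0.920% were called higher at all 5 times. BGLU28, among the 9, passed the filter only through the deficient arrays, so its calls against 0 h are given no weight. AT3G56200 went from a mean signal of 453.3 at 0 h to 1154 at 3 h and 1158 at 72 h, and AT3G27150 from 123.9 to 458.6 and 369.6.

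Without the 2 arrays of 0 h the values were lower for most. Over the 10 deficient arrays BGLU28 kept 0.88, AT2G41730 had 0.81, AT3G56200 0.79 and AT5G20400 0.78, whereas GSTU25 had 0.41 and AT3G21690 0.35. Ranked on the 10 deficient arrays alone, the 5 most alike were AT2G47550 (0.97), AT5G49900 (0.91), AT3G54200 (0.90), BGLU28 (0.88) and AT2G34930 (0.88), the last of them below the 40th percentile on 6 of these 10 arrays. AT5G49900 had -0.51 over the 12 arrays, with log2 differences from 0 h of -0.32 to -0.72, of which 2 of 5 passed. BGLU28 is the 1 gene in both rankings, of 10 and of 5 genes. AT3G54200 also had 0.90 over the 12 arrays, outside the 10 most alike.

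The opposite course was closest in AT1G72160 (-0.94), SAMTL (-0.93), AT1G10340 (-0.93), AT1G54460 (-0.93) and AT5G05710 (-0.92). SAMTL is named for its likeness to carriers of S-adenosylmethionine, the methyl donor made from methionine. Its mean signal was 272.8 at 0 h, 132.5 at 3 h and 139.3 at 72 h. SAMTL was called lower at 4 of 5 times, as a choice by a course opposite to that of SDI2 favours. Over all probe sets tested, the share called lower ran from 1.55% at 48 h to 6.53% at 3 h. AT1G10340 had mean signals of 152.5 at 0 h, 39.5 at 3 h and 30.5 at 72 h. It was below the 40th percentile on 8 of the 10 deficient arrays and on neither 0 h array, so it passed the filter largely through the group where it was high, and its calls are given no weight. Over the 10 deficient arrays AT5G05710 had -0.95 and the other 4 had -0.76 to -0.41.

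The tissue label was checked on markers of root hairs, endodermis, stele and green tissue, of which 5 of 20 were measured. The root hair expansins EXPA7 and EXPA18 and the endodermis gene GSO1 were above the 40th percentile on every array, as were the green tissue genes RCA and LHCB4.1, and no stele marker was measured. The summed signal of the 2 root hair genes was 1244 to 1553 at 0 h and lower at all later times, with 368.5 to 722.6 at 3 h. Both fell at 3 h and 24 h and EXPA18 also at 48 h and 72 h. Over all probe sets tested, 6.53% were called lower at 3 h, 2.36% at 24 h, 1.55% at 48 h and 3.26% at 72 h. The calls of EXPA7 at 24 h and of EXPA18 at 48 h and 72 h were near the threshold and were lost when most single arrays were left out. The summed signal of the 2 green tissue genes was 596.3 to 612.5 at 0 h and 331.2 to 333.4 at 12 h. At 12 h, the deficient time with the lowest SDI2 mean, both genes were called lower, against 4.33% of probe sets. These calls needed all 4 arrays of the comparison and were lost under 5 (RCA) and 6 (LHCB4.1) of 19 alternatives. At 24 h the summed signal of the green tissue genes was 515.3 to 707.8, while the mean signal of SDI2 was 567.1 at 12 h and 577.8 at 24 h. Over the 12 arrays SDI2 had correlations of -0.69 with EXPA7, -0.72 with EXPA18, -0.05 with GSO1, -0.26 with RCA and -0.24 with LHCB4.1. Over the 10 deficient arrays they were -0.29, 0.12, -0.75, 0.09 and -0.03, in that order. The part of these markers in the course of SDI2 was not tested.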

How the data were processed

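Whole-root RNA was measured on 12 arrays. The authors deposited 1 linear intensity per probe set and array, made with MAS5 per the submitters' processing notes, which give no version. The 2% trimmed means were 250.0 on all 12 arrays, so the intensity values were used as deposited, as log2 without an added constant. There were 22810 probe sets, 64 of them controls, and no detection calls. The number of arrays limits the precision. Groups came from the sample titles. limma 3.58.1 (R 4.3.3) was fitted to group means with 6 residual degrees of freedom and a prior variance that follows the signal, tested on simulated data. The exact permutation test used SDI2 alone. Gene names came from the platform table (13513 probe sets with 1 gene, 503 with several, 8730 unlisted), updated through TAIR10.1 (13436 matched). The genome build behind the probe sets is not known here, so no coordinates are given, and sequences were not used here.

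Genes named are SDI2, every measured list member, the 10 most and 5 least alike over 12 arrays and the 5 most alike over 10. The neighbours AT1G04780 and AT1G04790 were added by position. The gene and the 12 lists (100 entries) were chosen with earlier results of these data known. Same-numbered replicates did not deviate together (correlations between times of -0.23 to 0.20, 1 of 15 over 0.1), and replicates correlated at 0.966 to 0.982. The alternatives were an offset of 16.3, quantile normalization, no filter, a stricter one (60th percentile), no trend, a block for the replicate number, a fit to only the groups compared, and the removal of each array in turn.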

Additional observations from a re-analysis of the deposited data

Results flagged for a closer look

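The differences from 0 h changed between later times for SDI2 and for some genes of its pathways, each by limma's test of the difference itself. For SDI2 the 12 h value was -0.76 and the 24 h value -0.73 on the log2 scale relative to 3 h. Both SDI2 calls were near the threshold and were lost under 12 and 5 of 19 alternatives. From 3 h to 12 h the differences were -3.25 for BGLU28, -1.33 for APS3 and -1.58 for BCAT4. From 24 h to 48 h APS4 stood at -1.47. From 48 h to 72 h BCAT4 stood at -2.78 and AT2G31790 at -1.72, steps over which SDI2 did not pass. The AT2G31790 call was near the threshold (adjusted p = 0.0397 with limma), and 1 of its 2 arrays at 72 h was below the 40th percentile.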

How the results depend on the processing

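The 5 differences of SDI2 from 0 h, their mean and the F test kept their direction and passed under all alternatives run. The 3 h difference ranged from 2.46 to 2.70, 12 h from 1.57 to 2.06, 24 h from 1.65 to 2.06, 48 h from 2.04 to 2.17 and 72 h from 2.26 to 2.39 on the log2 scale. The other 8 differences between later times, and that of 48 h with 72 h against 12 h with 24 h, passed under no alternative run. That of 24 h from 12 h, never past the threshold, changed sign when 1 array was left out (-0.21 to 0.28). The fall from 3 h to 12 h lost its call under 12 of 19 alternatives. It stood at -0.75 with quantile normalization (adjusted p = 0.0505), and at -0.76 with no filter, without the trend, with the replicate block and with the compared groups alone (adjusted p = 0.0559, 0.114, 0.0603 and 0.115). Leaving out 1 array gave -1.01 to -0.52, with 5 of 12 past the threshold; it was lost without either array of 3, 48 or 72 h or 12 h replicate 1. The fall from 3 h to 24 h was -0.73 and lost without the trend and with the compared groups alone (adjusted p = 0.0763 and 0.0690). Leaving out 1 array gave -0.93 to -0.52, lost without either 3 h array or 24 h replicate 2. The replicate block changed no other SDI2 call; same-numbered replicates share only a number. The number of pathway genes called, 2 at 12 h and 2 at 24 h, was 1 to 2 at both when 1 array was left out. Of the 10 genes most like SDI2, 3 were shared with the 10 by Spearman correlation and 2 with the 10 by group means, where BGLU28 ranked 5 and 13. Over all probe sets the calls at 3 h were 1755, and 922 with the compared groups alone. Leaving out 1 array gave 569 to 1316 at 12 h (1129 in all arrays), 158 to 909 at 24 h (709), 191 to 648 at 48 h (516) and 322 to 1114 at 72 h (906).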
